A study of Homo sapiens with 7 samples.

Results

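The PAX genes encode transcription factors that bind DNA through a paired domain and pattern the embryo. H3K4me3, trimethylated lysine 4 of histone H3, was looked for here near the promoters of all 9 of them, PAX1 to PAX9. The members were every listed H3K4me3 region that overlapped 5 kb either side of 1 point per gene, or of 2 points for PAX6, on hg19. The family was selected on its RPM in these same 3 libraries, so its ratios between them are a description and carry no test. The rule gave 8 regions of the 30840 in the table, at 6 of the 9 genes: PAX2, PAX3, PAX7 and PAX8 had 1 region each, PAX6 and PAX9 had 2, and PAX1, PAX4 and PAX5 had none.

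The PAX family falls into subgroups by domain structure. PAX1 and PAX9 pattern the sclerotome and pharyngeal pouches; PAX2, PAX5 and PAX8 act in kidney and midbrain, B cells, and thyroid; PAX3 and PAX7 act in neural crest and muscle precursors; PAX4 and PAX6 act in endocrine pancreas, and PAX6 also in the eye. Genes of this kind are well-known Polycomb targets, and in embryonic stem cells many of their promoters hold H3K4me3 beside the repressive mark H3K27me3. KDM5A is a demethylase that removes methyl groups from H3K4, and its ARID domain is known to bind the DNA motif CCGCCC.

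The cells were HCT116, a human colon cancer line, with KDM5A knocked out (KDM5A-/-) and grown in medium with G418. They were transfected with mutant KDM5A, wild-type KDM5A or an empty vector and fixed 24 h later, so all 3 groups share the knockout and differ in the plasmid. The study is about SMYD2, a methyltransferase, acting on KDM5A. The residues changed in the mutant, and whether the knockout line is 1 clone, were not stated in the labels. Each transfection gave 1 H3K4me3 library, so there is no replicate check and no p-value, every interval covers counting error only, and a difference between libraries cannot be told apart from a difference between transfections.

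The libraries held 9906508 reads with mutant KDM5A, 10852411 with wild-type KDM5A and 10713021 with the empty vector, and 56.9%, 60.7% and 67.0% of these lay in listed regions. Values are RPM, the read count of a region scaled by its library's total. Of all listed regions 70.5% had a log2 ratio below 0 for mutant KDM5A over the empty vector and 66.7% for wild-type KDM5A. The median log2 ratio of all regions was −0.18 for mutant and −0.11 for wild-type KDM5A. With libraries scaled to equal sums over the regions, these medians were 0.030 and 0.023. Why the share of reads in regions differed between libraries was not tested. A set of 19 regions on chromosome 12 between 394565 and 493388 summed to 481.8 RPM in the mutant and 391.9 RPM in the wild-type library. In the empty vector library they summed to 4.01 RPM. These regions were picked for being under 1 RPM with the empty vector and over 5 RPM with both KDM5A forms. Their difference in RPM thus follows from the choice and by itself does not check the labels. Only chromosome 12 was searched, to look for reads of the transfected KDM5A. Where on it the regions lay was not part of the choice. Which gene lies there was not looked up. Colon markers were not checked, since no annotation of hg19 was at hand to place them.

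As examples of promoter DNA of the family, RefSeq promoter windows were read, on GRCh38.p14 from 250 bases before to 50 after a transcription start. Windows were found for 8 PAX genes, PAX1 not among them. They are on another build than the regions and were not tied to a region by position. Of the PAX regions those of PAX3 and PAX7 differed most from the empty vector, PAX6 the widest region, and PAX5 and PAX4 had no region. Shown 5′ to 3′ with each CpG in capitals are the windows of PAX3 (chr2:222298949-222299248, minus strand), PAX7 (chr1:18630596-18630895, plus strand), the most upstream start of PAX6 (chr11:31817912-31818211, minus strand), PAX5 (chr9:37034219-37034518, minus strand) and the most upstream start of PAX4 (chr7:127618093-127618392, minus strand).
PAX3: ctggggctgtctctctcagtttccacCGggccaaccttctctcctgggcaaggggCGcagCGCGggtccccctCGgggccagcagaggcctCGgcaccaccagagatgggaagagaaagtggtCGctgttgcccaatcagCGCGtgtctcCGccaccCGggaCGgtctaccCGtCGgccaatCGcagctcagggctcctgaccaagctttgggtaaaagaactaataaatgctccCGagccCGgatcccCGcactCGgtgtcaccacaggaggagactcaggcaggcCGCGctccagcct
PAX7: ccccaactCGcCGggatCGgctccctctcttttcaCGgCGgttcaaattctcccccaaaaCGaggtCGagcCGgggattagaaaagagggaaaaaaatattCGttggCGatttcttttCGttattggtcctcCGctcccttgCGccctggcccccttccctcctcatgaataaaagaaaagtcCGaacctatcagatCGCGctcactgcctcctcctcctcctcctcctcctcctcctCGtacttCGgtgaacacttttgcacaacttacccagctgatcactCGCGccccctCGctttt
PAX6: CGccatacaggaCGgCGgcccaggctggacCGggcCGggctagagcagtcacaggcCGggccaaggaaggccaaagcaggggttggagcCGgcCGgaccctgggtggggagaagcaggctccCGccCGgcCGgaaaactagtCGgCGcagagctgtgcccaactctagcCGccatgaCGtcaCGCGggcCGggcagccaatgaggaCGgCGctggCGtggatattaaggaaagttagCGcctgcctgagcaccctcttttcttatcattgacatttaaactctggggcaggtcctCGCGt
PAX5: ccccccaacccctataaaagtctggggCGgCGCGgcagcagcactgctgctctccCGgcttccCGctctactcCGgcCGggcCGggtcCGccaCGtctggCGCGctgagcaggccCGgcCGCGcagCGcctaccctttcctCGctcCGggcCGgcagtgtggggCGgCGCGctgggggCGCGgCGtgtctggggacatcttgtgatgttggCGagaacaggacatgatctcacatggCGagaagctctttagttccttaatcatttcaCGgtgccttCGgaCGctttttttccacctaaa
PAX4: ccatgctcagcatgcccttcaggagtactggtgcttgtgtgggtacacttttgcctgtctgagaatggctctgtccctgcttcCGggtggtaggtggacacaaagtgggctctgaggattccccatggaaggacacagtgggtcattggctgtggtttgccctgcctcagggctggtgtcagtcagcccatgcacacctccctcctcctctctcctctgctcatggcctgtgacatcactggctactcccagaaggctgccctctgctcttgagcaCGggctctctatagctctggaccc

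CpG content set PAX4 apart from the other windows shown. Its window held 2 CpG, against 21 in PAX3, 21 in PAX7, 24 in PAX6 and 30 in PAX5, and the median of all 35116 windows in the table was 14. PAX5 was thus the richest in CpG of the 5 and still had no region within 5 kb of its point. With CpG-rich taken as at least 50% GC and an observed-to-expected CpG ratio of at least 0.6, 8 of the 19 PAX windows qualified (42.1%), beside 46.9% of all windows. The motif CCGCCC was searched on both strands (as CCGCCC or GGGCGG, overlaps counted). It was in 8 of the 19 PAX windows (42.1%), beside 45.0% of all windows. The matches lay in 6 of 9 PAX6 windows, 1 of 2 PAX9 windows and the PAX5 window, and the single windows of PAX3, PAX7 and PAX8 and both of PAX2 had none. A match is a run of letters and not a bound site.

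The regions sat at different places relative to their points, and "past" and "after" are toward higher coordinates on the chromosome. The PAX2 region (chromosome 10, 102503642 to 102506354, 2713 bp) and the PAX3 region (chromosome 2, 223162825 to 223163945, 1121 bp) covered their points. The PAX7 region (chromosome 1, 18957661 to 18958965, 1305 bp) began 661 bp past its point. At PAX6 (chromosome 11), which is known to be transcribed from more than one promoter, the wider and by RPM the stronger region, 31829968 to 31834661, spanned 4694 bp over the point at 31833 kb, and the other, 31837971 to 31839906, spanned 1936 bp over the point at 31839 kb. The wider one exceeded 98.0% of all listed regions in width, where the median was 1268 bp.

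At PAX9 (chromosome 14) neither region covered the point: a narrow one of 523 bp, 37125318 to 37125840, ended 1160 bp before it, and one of 1500 bp, 37130490 to 37131989, began 3490 bp after it. The PAX8 region (chromosome 2, 114040821 to 114043140, 2320 bp) lay nearest to the edge of the 5 kb window, starting 4821 bp from the point. Just outside that edge was the nearest region to PAX5 (chromosome 9, 37026530 to 37028363), 5637 bp away, with 4.85 RPM in the mutant, 5.53 in the wild-type and 5.69 in the empty vector library. PAX8 had 4.54, 3.78 and 4.48 RPM in that order. For PAX1 the nearest region was 14792 bp away and held 0.707, 0.184 and 0.280 RPM. For PAX4 the nearest was 26113 bp away and held 51.1, 54.6 and 61.5 RPM.

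**Figure D1:**
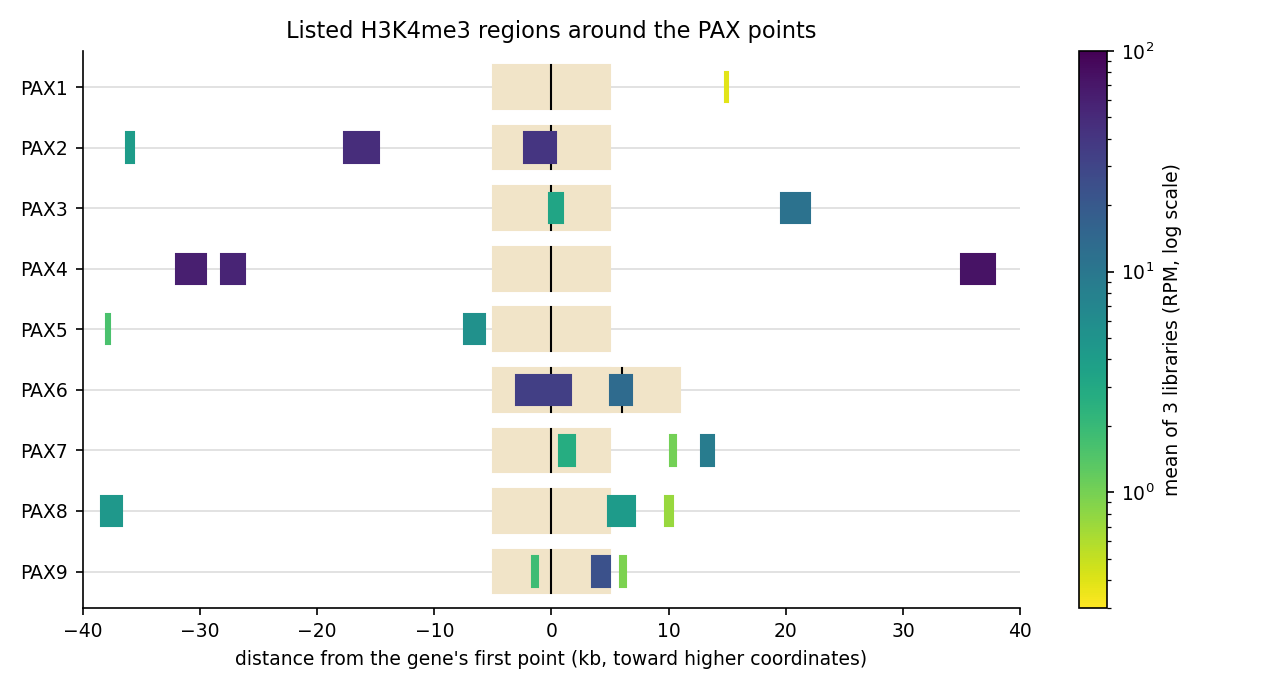
Listed H3K4me3 regions within 40 kb of the first point of each PAX gene. The x axis is the distance from that point in kb toward higher coordinates, black ticks are the points, shaded boxes the 5 kb windows, and colour the mean RPM of the 3 libraries on a log scale. PAX1, PAX4 and PAX5 have no region inside their windows, and PAX6 has a wide and a narrower one.

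Per length, PAX2 and PAX9 carried the most H3K4me3 and PAX8 the least with the empty vector. There PAX2 had 17.2 RPM per kb (95% Poisson interval 15.7 to 18.8) and the stronger PAX9 region 16.5 RPM per kb (14.6 to 18.6). Both were below the median of regions with a mean of 20 RPM or more, called strong here, at 19.0 RPM per kb. The wider PAX6 region had 8.61 RPM per kb (7.82 to 9.46) and the other PAX6 region 8.39 (7.19 to 9.73). PAX3 followed with 4.75 (3.59 to 6.15), PAX7 with 3.505 (2.59 to 4.63), the weaker PAX9 region with 3.39 (2.04 to 5.30) and PAX8 with 1.93 RPM per kb (1.42 to 2.56). Within each of the pairs PAX2 and PAX9, both PAX6 regions, PAX3 and PAX7, PAX7 and the weaker PAX9 region, and that region and PAX8, the counting intervals overlapped; the steps from PAX9 to PAX6 and from PAX6 to PAX3 did not.

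The order differed between libraries. With mutant KDM5A PAX7 was the lowest per length, at 1.62 RPM per kb (1.01 to 2.48), with PAX3 at 1.98 (1.24 to 2.999) and PAX8 at 1.96 (1.43 to 2.62). With wild-type KDM5A PAX7 was again the lowest, at 1.13 RPM per kb (0.646 to 1.83), with PAX8 at 1.63 (1.17 to 2.21). In both libraries the intervals given overlap, so which of these regions was lowest is not settled. In the empty vector library 50.8% of listed regions were less dense than PAX3 and 40.8% less dense than PAX7. In the mutant library these shares were 17.8% and 11.9%, and in the wild-type library 18.2% and 5.49%.

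**Figure D2:**
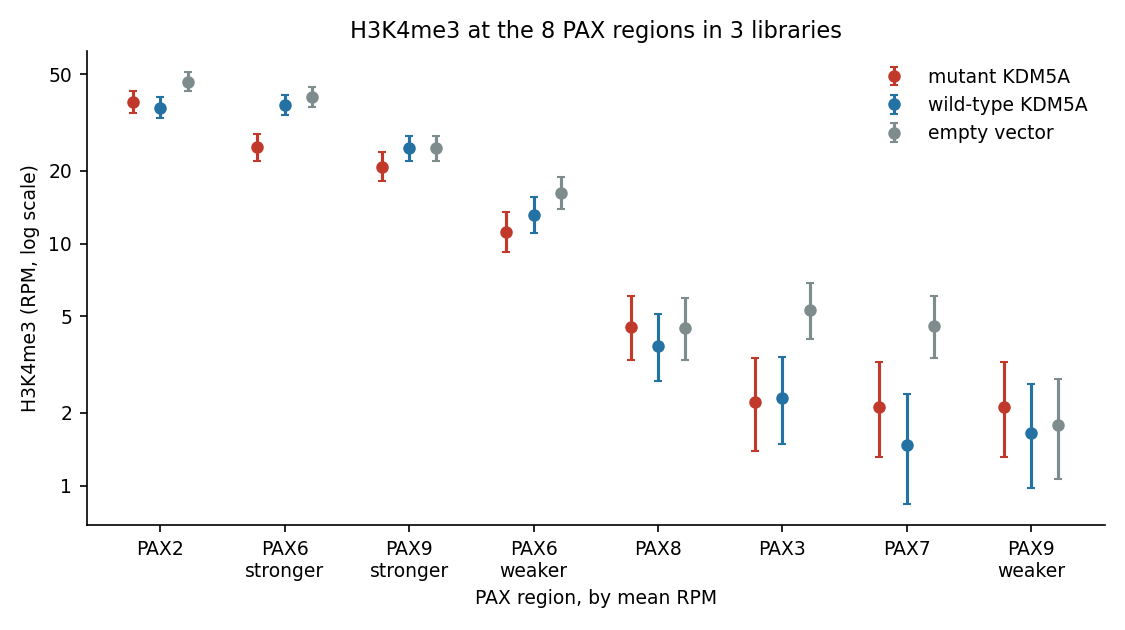
H3K4me3 in RPM (log scale) at the 8 PAX regions, ordered by mean RPM, in the mutant KDM5A, wild-type KDM5A and empty vector libraries, 1 library each. Bars are 95% Poisson intervals of the reads; at PAX3 and PAX7 the intervals of both KDM5A libraries lie below that of the empty vector, with the upper bound at 3.24 RPM for PAX7 in the mutant library against a lower bound of 3.38 RPM with the empty vector.

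PAX3, a regulator of neural crest and muscle progenitors, had 2.22 RPM with mutant KDM5A, 2.30 with wild-type KDM5A and 5.32 with the empty vector, from 22, 25 and 57 reads. The empty vector library was the high one, and the KDM5A libraries were near each other. The plain ratio to the empty vector was 0.417 for mutant KDM5A (exact conditional 95% interval 0.243 to 0.694), which is 2.40-fold lower, and 0.433 for wild-type KDM5A (0.259 to 0.704), 2.31-fold lower. Mutant over wild-type KDM5A was 0.964, with an interval of 0.518 to 1.78 that leaves room for differences either way.

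PAX7, the paralog that marks muscle satellite cells, had 2.12 RPM with mutant KDM5A, 1.47 with wild-type KDM5A and 4.57 with the empty vector, from 21, 16 and 49 reads. The empty vector library was again the highest. The ratio to the empty vector was 0.463 for mutant KDM5A (0.264 to 0.787) and 0.322 for wild-type KDM5A (0.171 to 0.577), or 2.16-fold and 3.10-fold lower. Mutant over wild-type KDM5A was 1.44 (0.715 to 2.95). The PAX3 and PAX7 regions together held 43 reads with mutant KDM5A, 41 with wild-type KDM5A and 106 with the empty vector.

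On the log2 scale with a pseudocount of 0.7 RPM, which understates changes of weak regions, PAX3 stood at −1.04 for mutant and −1.003 for wild-type KDM5A and PAX7 at −0.90 and −1.28. With a pseudocount of 3.5 RPM PAX7 stood at −0.52 for mutant KDM5A and was no longer past 1.5-fold. Among the 15714 regions below 5 RPM, called weak here, 2.68% and 2.37% were as low as PAX3, and 4.81% and 0.681% as low as PAX7. The nearest region of PAX3 and the nearest one of PAX7 above 5 RPM outside the windows had ratios with intervals that include 1. The region 19.6 kb past the PAX3 point had 9.89 RPM with mutant KDM5A, 12.1 with wild-type KDM5A and 11.9 with the empty vector, and ratios to the empty vector of 0.828 (0.630 to 1.09) and 1.01 (0.786 to 1.30). The region 12.8 kb past the PAX7 point had 8.28, 10.04 and 8.68 RPM in the same order, and ratios of 0.954 (0.6998 to 1.30) and 1.16 (0.869 to 1.54). The difference between each gene and its neighbour was not tested.

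PAX6, the regulator of eye and endocrine pancreas, had at its wider region 25.0 RPM with mutant KDM5A, 37.4 with wild-type KDM5A and 40.4 with the empty vector, from 248, 406 and 433 reads. Here the mutant library stood apart from the other two. Mutant over the empty vector was 0.619 (0.528 to 0.726), 1.61-fold lower, and mutant over wild-type KDM5A 0.669 (0.569 to 0.786), 1.49-fold lower, while wild-type KDM5A over the empty vector was 0.926 (0.806 to 1.06). On the log2 scale these were −0.68, −0.57 and −0.11. Among the 10887 strong regions 11 were as low as this one for mutant KDM5A over the empty vector, itself counted, and none was lower for mutant over wild-type KDM5A; this rank was known when the genes were chosen and is a description.

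The other PAX6 region had 11.2 RPM with mutant KDM5A, 13.2 with wild-type KDM5A and 16.2 with the empty vector. The libraries stood in the same order as at the wider region. Mutant over the empty vector was 0.690 (0.539 to 0.880), wild-type over the empty vector 0.811 (0.646 to 1.02) and mutant over wild-type KDM5A 0.850 (0.658 to 1.10). Summed over both regions, PAX6 held 36.2, 50.6 and 56.7 RPM, which was 34.0%, 41.8% and 39.3% of the signal at the 8 PAX regions.

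PAX2, which acts in kidney and optic nerve development, had 38.5 RPM with mutant KDM5A, 36.4 with wild-type KDM5A and 46.7 with the empty vector, from 381, 395 and 500 reads. Both KDM5A libraries were below the empty vector and close to each other. The ratio to the empty vector was 0.824 for mutant (0.719 to 0.943) and 0.780 for wild-type KDM5A (0.682 to 0.892), and mutant over wild-type KDM5A was 1.06 (0.916 to 1.22). Among strong regions 38.5% were as low for mutant KDM5A and 3.02% for wild-type KDM5A. PAX2 was thus near the middle of the strong regions in the first and toward their lower end in the second. The region 14.7 kb before the PAX2 point had 43.4, 48.2 and 52.0 RPM, with ratios to the empty vector of 0.835 for mutant (0.734 to 0.948) and 0.927 for wild-type KDM5A (0.821 to 1.05).

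PAX8, the thyroid and kidney factor of the same subgroup, had ratios whose intervals all include 1. Its ratio to the empty vector was 1.01 for mutant (0.660 to 1.56) and 0.843 for wild-type KDM5A (0.542 to 1.31), from 45, 41 and 48 reads. A difference of the size seen at PAX3 for mutant KDM5A (0.417) lies outside the first interval, but one of 1.5-fold does not.

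PAX9, which is needed for teeth and pharyngeal pouch derivatives, had at its stronger region 20.8 RPM with mutant KDM5A, 24.7 with wild-type KDM5A and 24.7 with the empty vector, from 206, 268 and 265 reads. The mutant library was the lowest, and the others were equal to 3 digits. The ratio to the empty vector was 0.841 for mutant (0.697 to 1.01) and 0.998 for wild-type KDM5A (0.839 to 1.19), and mutant over wild-type KDM5A was 0.842 (0.699 to 1.01). For wild-type KDM5A 91.0% of strong regions had a ratio as low or lower. The weaker PAX9 region had 2.12, 1.66 and 1.77 RPM from 21, 18 and 19 reads, and all 3 of its ratios had intervals that include 1.

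**Figure D3:**
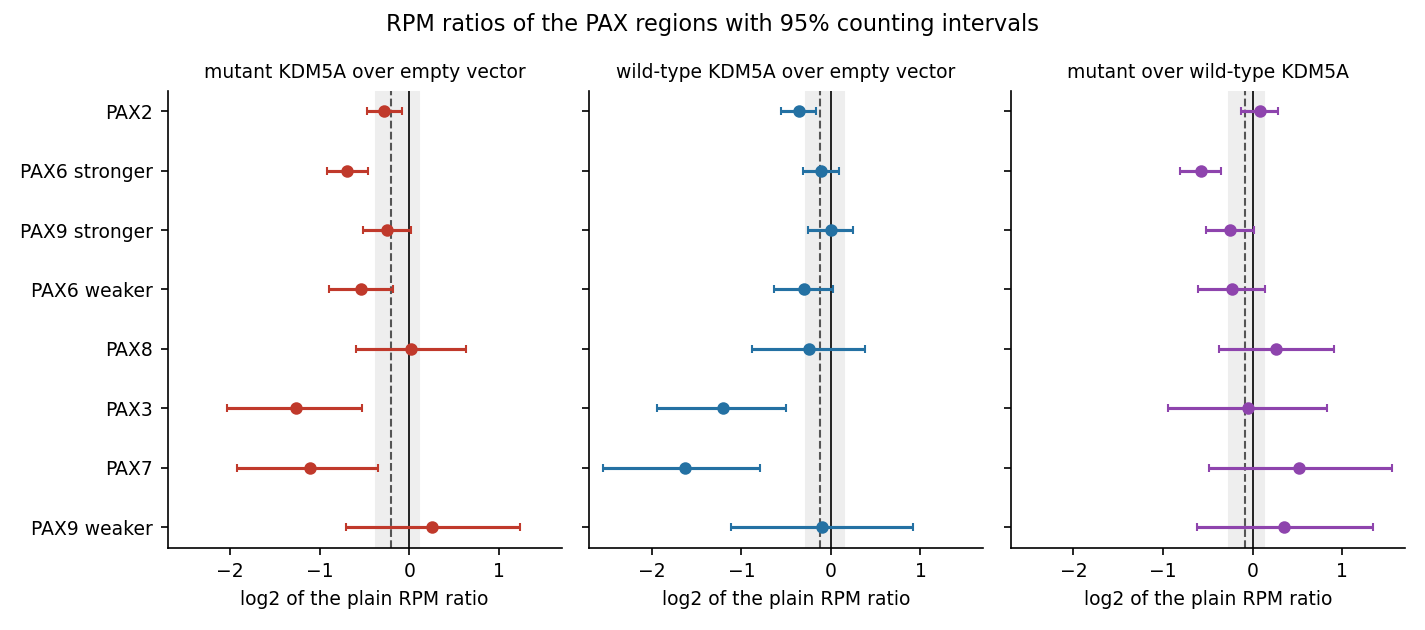
Log2 of the plain RPM ratio at each PAX region with exact conditional 95% intervals (counting error only), for mutant KDM5A over empty vector, wild-type KDM5A over empty vector and mutant over wild-type KDM5A. The dashed line and grey band are the median and quartiles over all listed regions. For mutant KDM5A over empty vector PAX3, PAX7 and both PAX6 regions lie below the band and the weaker PAX9 region above it. For wild-type KDM5A over empty vector PAX3, PAX7, PAX2 and the weaker PAX6 region lie below it. For mutant over wild-type KDM5A the wider (stronger) PAX6 region lies below it, and PAX7, PAX8 and the weaker PAX9 region above it.

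Across the family, 3 of 8 PAX regions were at least 1.5-fold lower with mutant KDM5A than with the empty vector on the scale with the pseudocount (PAX3, PAX7 and the wider PAX6 region), beside 8.15% of all listed regions, and 0 were higher, beside 6.61%. By level the share lower was 13.9% of weak and 0.432% of strong regions. For wild-type KDM5A 2 of 8 were lower (PAX3 and PAX7), beside 6.53% of all, 11.9% of weak and 0.0459% of strong regions, and 0 were higher, beside 6.23%. For mutant over wild-type KDM5A 0 were lower, beside 5.45%, and 0 higher, beside 5.19%. The members were chosen with these values known, so nothing is read from the counts.

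The median log2 ratio of the 8 regions was −0.39 for mutant KDM5A over the empty vector, beside −0.18 over all listed regions, and −0.25 for wild-type KDM5A, beside −0.11. For mutant over wild-type KDM5A it was 0.019, beside −0.077, with 4 of 8 regions below 0. Summed, the PAX regions held 106 RPM with mutant KDM5A, 121 with wild-type KDM5A and 144 with the empty vector. The ratio of the sum to the empty vector was 0.738 for mutant (0.682 to 0.799) and 0.838 for wild-type KDM5A (0.778 to 0.903). Over all listed regions the ratio of the sums was 0.849 for mutant and 0.905 for wild-type KDM5A. Both comparisons use the same empty vector library, so a high value there lowers both. For mutant over wild-type KDM5A the ratio of the PAX sum was 0.881 (0.812 to 0.956), beside 0.938 over all listed regions.

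Scaling the libraries to a median ratio of 1 over the listed regions with a mean RPM of at least the median moved the median of all regions by 0.22 for mutant and 0.13 for wild-type KDM5A. Of the regions past 1.5-fold, the share that was lower became 30.6% for mutant KDM5A, 55.2% without scaling, and 36.4% for wild-type KDM5A, 51.2% without scaling; for mutant over wild-type KDM5A it became 40.04%, also 51.2% without scaling. Under it PAX3 stood at −0.83 and −0.88 and PAX7 at −0.70 and −1.15, still past 1.5-fold, while the wider PAX6 region stood at −0.44 for mutant KDM5A and was no longer past it. PAX2 stood at −0.039 and −0.21. For wild-type KDM5A the wider PAX6 region and both PAX9 regions turned to the other side of 0, at 0.033, 0.14 and 0.034, and for mutant over wild-type KDM5A PAX3 did so, at 0.032.

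**Figure D4:**
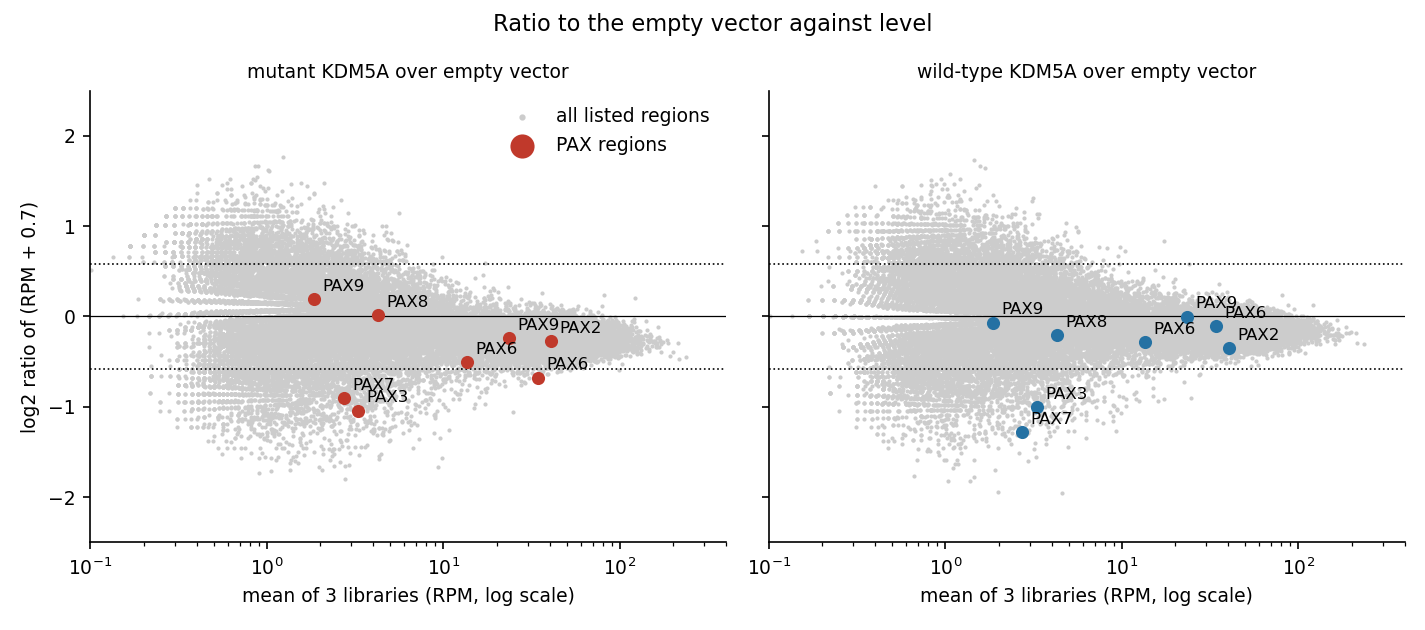
Log2 ratio of RPM plus 0.7 to the empty vector against the mean RPM of the 3 libraries (log scale), for mutant KDM5A and wild-type KDM5A. Grey points are all listed regions, coloured points the PAX regions, and dotted lines mark 1.5-fold; ratios past 2.5 lie beyond the axis. The spread widens below 5 RPM, where PAX3, PAX7, PAX8 and the weaker PAX9 region lie, and the wider PAX6 region sits at the lower edge for mutant KDM5A.

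Other listed regions with a like pattern over the 3 libraries were found by the Euclidean distance in log2(RPM + 0.7), and are given by hg19 position with no gene name. For PAX3 the nearest was at chromosome 6, 124123668 to 124125377, with 2.22, 2.30 and 4.95 RPM for mutant KDM5A, wild-type KDM5A and the empty vector (distance 0.092), followed by chromosome 6, 3226923 to 3228067, and chromosome 14, 42075704 to 42077864. For PAX7 it was at chromosome 1, 2460027 to 2461453 (distance 0.11), followed by chromosome 15, 58357439 to 58358987, and chromosome 6, 28777436 to 28778730, which each had 2.22, 1.66 and 4.67 RPM (distance 0.13). PAX2 had a near twin at chromosome 2, 210866535 to 210869238, with 38.7, 36.3 and 46.6 RPM (distance 0.0087); the next were at chromosome 11, 66205041 to 66206997, and chromosome 17, 73389422 to 73391194. The wider PAX6 region had none so close: the nearest, at chromosome 9, 133971218 to 133973336, had 27.6, 37.2 and 40.2 RPM (distance 0.14), and the next were at chromosome 11, 415457 to 417959, and chromosome 1, 226309036 to 226313356. Likeness was measured over 3 libraries alone.

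Within 100 kb of the points lay 27 further listed regions. For mutant KDM5A over the empty vector 2 of them were at least 1.5-fold lower, beside 8.15% of all listed regions, and 0 higher, beside 6.61%. Their median log2 ratio was −0.22. For wild-type KDM5A 1 was lower, beside 6.53%, and 2 were higher, beside 6.23%, with a median of −0.097. Nothing is read from these counts. The 11 strong ones among them ran from −0.46 to −0.10 for mutant and from −0.27 to 0.16 for wild-type KDM5A. The wider PAX6 region, at −0.68 for mutant KDM5A, lay below that range, and PAX2, at −0.35 for wild-type KDM5A, did too. The strong ones lay near PAX genes other than PAX6, so this is no local comparison for PAX6. The only further region near PAX6 was weak, with a mean of 1.02 RPM, 59.5 kb from its first point.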

How the data were processed

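H3K4me3 ChIP-seq libraries of 3 transfections were compared; inputs and IgG are not used here, and no background was taken off. The deposited table gives RPM per region, as the authors computed it; per the submitters' processing notes deepTools 3.5.6, HOMER, MACS, MACS2 and Bowtie2 2.5.4 were used, with hg19. Whether peak calling pooled the libraries is not given in the sources used here. One column header, that of the empty vector, has H3K4me4 where the sample label has H3K4me3. All values were whole multiples of 1 step per library, within 0.02 reads, so reads were recovered by division. Points came with the choice of genes, and any overlap with 5 kb either side made a region a member. Members, lists and thresholds were chosen with earlier results of these data known. Every PAX gene is named, with the 3 likest regions of the strongest member and of each gene whose strongest region was past 1.5-fold. Ratios are of RPM, with exact conditional (Clopper-Pearson) 95% intervals; intervals cover counting error only, and PCR copies are not independent molecules. The EYA, DACH and sine oculis homeobox genes, partners of the PAX factors, were not analysed here, since no hg19 annotation was at hand. Procedures were tested on simulated data. Computation used scipy 1.17.1, pandas 2.3.3, numpy 2.4.6, matplotlib 3.10.9 and Python 3.11.15.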

Additional observations from a re-analysis of the deposited data

How the results depend on the processing

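No paired analysis was possible because each group has 1 library, and for the same reason no library could be left out. For mutant KDM5A over the empty vector, the count of PAX regions at least 1.5-fold lower was 1 when regions under the median mean RPM were dropped, where 4 of the 8 remain and the weak PAX3 and PAX7 are left out, 1 at a 2-fold threshold (PAX3), and 2 with a pseudocount of 3.5 RPM, where PAX7 stood at −0.52 and lost the call. For wild-type KDM5A it was 0 when regions under the median mean RPM were dropped. The share of all listed regions called was not computed under these settings, so nothing is read from these counts. The median log2 ratio for mutant KDM5A over the empty vector was −0.16 with scaling to a median ratio of 1 and −0.16 with equal sums over the regions, −0.59 with windows of 2 kb, −0.27 with windows of 10 kb and −0.51 with region centres inside the window. For wild-type KDM5A it was −0.12 under both scalings. The median of mutant over wild-type KDM5A, near 0, turned to −0.23 when regions under the median mean RPM were dropped, −0.040 with windows of 10 kb and −0.040 with region centres inside the window; these settings change which regions are members. Of 96 values of single regions under other pseudocounts and scalings, 91 stayed inside their counting interval. Intervals of weak regions are wide, so staying inside says little there. The values outside were PAX2 and the wider PAX6 region for mutant KDM5A over the empty vector under both scalings. PAX7 for wild-type KDM5A over the empty vector with a pseudocount of 3.5 RPM was outside too. The reads of weak regions, 16 to 57 at PAX3 and PAX7, limit what these libraries can show there.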

Other observations

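A narrow region 5823 bp past the PAX9 point and thus outside the window, at chromosome 14, 37132823 to 37133324, had 0.303 RPM with mutant KDM5A, 0.737 with wild-type KDM5A and 1.77 with the empty vector, from 3, 8 and 19 reads. Against the empty vector its ratio was 0.171 for mutant (0.0324 to 0.580) and 0.416 for wild-type KDM5A (0.157 to 0.994). It was singled out after its values were seen, and the stronger PAX9 region beside it had ratios of 0.841 and 0.998.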
